A study of Sus scrofa with 6 samples.

Results

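GATA4 and HAND2 are transcription factors of the early heart, and their transcripts were measured in whole pig embryos of 2 genotypes. They were taken by name as 2 of the 20523 transcript rows, GATA4 as ENSSSCT00000031727 (2050 bp) and HAND2 as ENSSSCT00000010638 (1716 bp), and each gene had 1 row. The embryos were Large White, 17.5 to 18.0 days post coitum, and differed at 2 quantitative trait nucleotides (QTNs) of VRTN, the gene of vertnin, which is tied to the number of thoracic vertebrae. Wild-type embryos (WT, also written qq) and embryos homozygous for both QTNs (QQ) gave 3 libraries each. No dam, litter or sex is named, so p-values measure only the spread between these 6 embryos.

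GATA4 is a zinc finger protein that binds DNA at GATA motifs. It is needed for the heart tube to form at the ventral midline and later for the valves and septa, and it also acts in the endoderm of gut and yolk sac and in the early gonad. HAND2 is a basic helix-loop-helix protein that pairs with E proteins such as TCF3. It is known for the growth of the right ventricle, and outside the heart for the posterior limb bud, the pharyngeal arches and sympathetic neurons. Both proteins work beside NKX2-5, TBX5, TBX20 and MEF2C at heart enhancers, and fibroblasts given GATA4 and HAND2 with TBX5 and MEF2C can take on features of heart muscle cells.

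In these embryos GATA4 had a higher mean and HAND2 a lower mean in the QQ group, and neither difference passed the test. GATA4 was a gene of uneven level between embryos of 1 genotype, with most of its difference in a single QQ embryo. When scaled to library totals alone, HAND2 was almost constant within each genotype, and its 2 groups did not overlap although their means were close.

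Libraries held 12.2 to 13.5 M uniquely mapped reads, and 13957 rows had enough reads to be tested with edgeR's quasi-likelihood test. It called 0% of them at an adjusted p of 0.05 in either direction. At an unadjusted p under 0.05, 20.3% of rows passed, 11% with higher (1540 rows) and 9.29% with lower values in QQ (1297 rows). That split was 2084 to 585 with library totals alone, and 1253 to 1859 with the trend over transcript length removed. DESeq2 on the same counts called 0.795% of rows, 0.738% higher and 0.0573% lower. WT replicate 3 stood apart, at -61.7 on the leading principal component (57.7% of variance), where the others ranged from -9.13 to 29.99. It had the lowest value of all 6 libraries in 41.4% of tested rows. VRTN had 0 reads in each WT library and 2, 0 and 1 reads in QQ replicates 1 to 3, so the genotype labels could not be checked through it. RNA came from the whole embryo, so fewer cells of a type and less RNA per cell cannot be told apart.

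GATA4 stood at 21.9, 26.6 and 19.0 RPKM (reads per kb of transcript, scaled to the library's total) in WT replicates 1 to 3. It stood at 23.4, 30.01 and 40.8 RPKM in QQ replicates 1 to 3. QQ replicate 3 was far above the rest, WT replicate 3 was lowest, and the groups overlapped, since QQ replicate 1 lay below WT replicate 2. The row held 523 to 1020 reads per library, with 95.1 to 99.8% of its length covered, so that counting alone gives an error of 3.13 to 4.37%. The exact 95% Poisson interval was 38.3 to 43.3 RPKM in QQ replicate 3 and 17.4 to 20.7 RPKM in WT replicate 3. These intervals cover counting error only, since PCR copies of a molecule are not marked in such reads.

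GATA4 averaged 22.5 ± 3.83 RPKM over the WT libraries, against 31.4 ± 8.76 RPKM over the QQ libraries (SD, n = 3 per genotype), a ratio of 1.40. After scaling between libraries the log2 fold change was 0.38 ± 0.19 (SE), which is 1.30-fold. The edgeR quasi-likelihood test gave an unadjusted p of 0.0725 and a Benjamini-Hochberg adjusted p of 0.272 over all tested rows. Of all tested rows, 26.6% had a smaller p. On log2(RPKM + 0.5), an exact permutation of the genotype labels gave a two-sided p of 0.2 for GATA4, and 0.1 is the lower limit of this design. Without QQ replicate 3 the log2 fold change was 0.16 and the edgeR adjusted p 0.674, and without WT replicate 3 the log2 fold change was 0.29.

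HAND2 stood at 116, 114 and 112 RPKM in WT replicates 1 to 3. It stood at 104, 98.9 and 104 RPKM in QQ replicates 1 to 3. Every QQ library lay below every WT library, with the gap between 112 and 104 RPKM. Groups stood apart with lower values in QQ in 9.07% of all tested rows, and in either direction in 27.9%. The row held 2135 to 2579 reads per library and 95.4 to 96.9% of its length was covered.

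HAND2 averaged 114 ± 2.15 RPKM over the WT libraries, against 102 ± 2.85 RPKM over the QQ libraries (SD, n = 3 per genotype), a ratio of 0.897. The log2 fold change was -0.25 ± 0.10 (SE), which is 0.841-fold, with an unadjusted p of 0.0311 and an adjusted p of 0.233 by edgeR's quasi-likelihood test. That adjusted p is also the smallest over all tested rows, and 13.1% of them had a smaller unadjusted p. The same exact permutation gave a two-sided p of 0.1, its lower limit. The size moved with the scaling between libraries: with library totals alone the log2 fold change was -0.16, and the median over all tested rows was then 0.09 in place of 0.00.

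**Figure D1:**
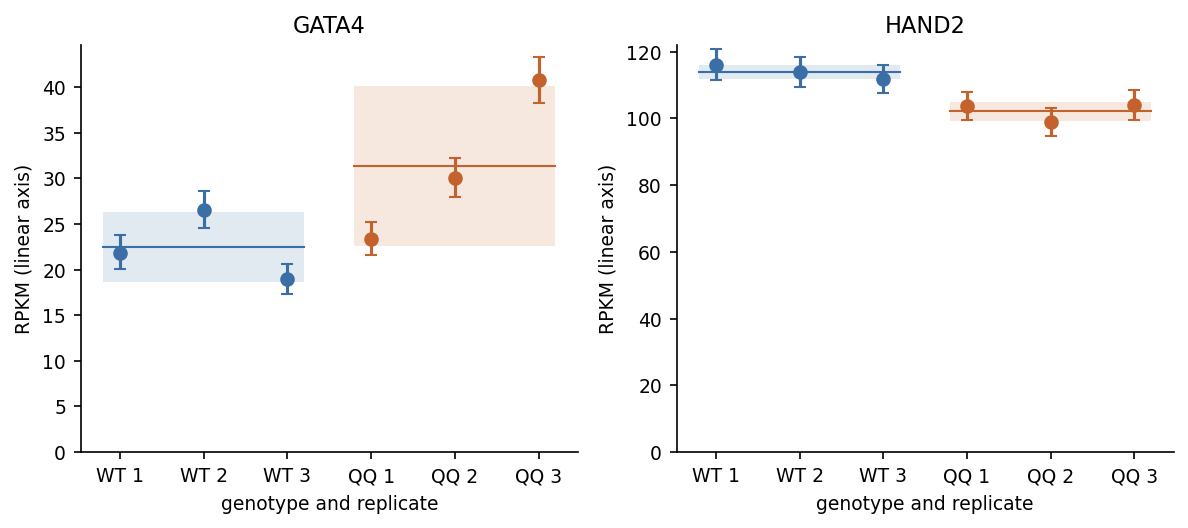
GATA4 (left) and HAND2 (right) in each library, in RPKM on a linear axis from 0. Points are libraries with exact 95% Poisson intervals, lines and bands are group means ± 1 SD (n = 3). GATA4 reaches 40.8 RPKM in QQ replicate 3 and overlaps between genotypes, while the HAND2 libraries of WT (112 to 116 RPKM) lie above those of QQ (98.9 to 104 RPKM).

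In RPKM, the spread within a genotype was very different for the 2 genes. The coefficient of variation of GATA4 was 17.0% in WT and 27.9% in QQ embryos, and that of HAND2 was 1.89% and 2.79%. For HAND2 this spread in RPKM is about the counting error itself, 1.97 to 2.16% per library. It depended on the scaling. After the scaling between libraries used in the test, HAND2 stood at 180, 160 and 170 CPM (counts scaled to library size) in QQ replicates 1 to 3. It stood at 202, 198 and 206 CPM in WT replicates 1 to 3. The QQ values then lay further apart than in RPKM, and the WT values did not. Pooled over the groups, the coefficient of variation of HAND2 in RPKM was 2.34%. The 1862 tested rows whose mean read number lay within 2-fold of HAND2's had a median of 9.76%, and 0.806% of them varied less than HAND2. For GATA4 the pooled value was 25.1%, against a median of 11.4% over the 3914 rows of like depth, and 95.1% of them varied less than GATA4.

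HAND2 was more abundant than GATA4 in every library on the per-length RPKM scale. The HAND2 level was 5.31, 4.28 and 5.89 times the GATA4 level in WT replicates 1 to 3. It was 4.43, 3.30 and 2.55 times the GATA4 level in QQ replicates 1 to 3. QQ replicate 3 had the smallest ratio and WT replicate 3 the largest, and the groups overlapped at WT replicate 2 and QQ replicate 1. The difference of log2(RPKM + 0.5), GATA4 minus HAND2, averaged -2.33 ± 0.23 in WT and -1.72 ± 0.39 in QQ embryos (SD, n = 3 each), which is 0.61 higher in QQ. The exact permutation of labels gave a two-sided p of 0.2. Over the 6 libraries the log2 levels of the 2 genes had a Pearson r of -0.68, a description over libraries that share 1 experiment and include WT replicate 3.

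Among 29 heart transcription factors with a row, HAND2 had the highest mean RPKM and GATA4 ranked 8. HAND1, the sister gene of HAND2 that acts in the left ventricle and in extra-embryonic mesoderm, came next after HAND2 at a mean of 103 RPKM over 6 libraries, and its range of 82.1 to 159 RPKM overlapped that of HAND2. GATA6 followed at 59.04 RPKM and TBX20, a T-box factor of heart muscle, at 48.8 RPKM, also with ranges that overlapped each other. SRF and IRX3 stood between these and GATA4, and the range of each overlapped the range of GATA4. FOXC2 (18.4 RPKM), SMARCD3 (17.9 RPKM), NKX2-5 (15.8 RPKM) and TBX5 (15.7 RPKM) came after GATA4. NKX2-5 and TBX5 are the homeobox and T-box factors that bind heart enhancers together with GATA4. WT replicate 3 had the lowest value in 14 and QQ replicate 3 the highest in 13 of the 26 other tested factors of this list.

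**Figure D2:**
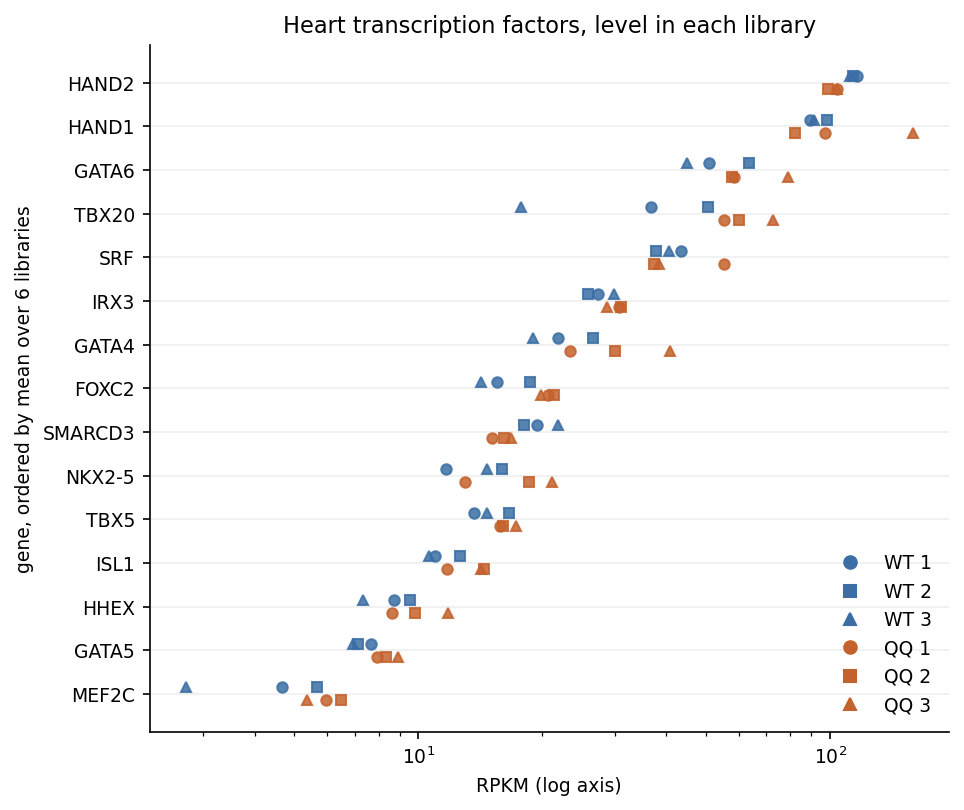
Level of the heart transcription factors named in the text in each of the 6 libraries, in RPKM on a log axis, ordered by mean. Colours mark genotype and shapes the replicate. HAND2 points lie close together at the top, and GATA4 spreads from 19.0 to 40.8 RPKM.

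The nearest relatives of GATA4 had smaller differences. GATA6, which shares the endoderm and heart with GATA4, stood at 50.8, 63.7 and 44.9 RPKM in WT and 58.4, 57.6 and 78.8 RPKM in QQ replicates 1 to 3. As for GATA4, its lowest value was in WT replicate 3 and its highest in QQ replicate 3. Its log2 fold change was 0.20 ± 0.16, and 0.04 without QQ replicate 3. GATA5, an endocardial and endodermal relative, stood at 6.94 to 7.66 RPKM in WT and 7.91 to 8.93 RPKM in QQ embryos, so its groups did not overlap. Groups stood apart with higher values in QQ in 18.8% of all tested rows. The log2 fold change of GATA5 was 0.12 ± 0.16, and it lay at about 0 under quantile normalization. GATA2 and GATA3, factors of blood and neurons, had log2 fold changes of 0.11 ± 0.15 and -0.12 ± 0.13, the first turning negative (-0.02) under quantile normalization, and GATA1, the erythroid member, of -1.09 ± 0.53. Of the 5 other GATA genes 3 had a log2 fold change above 0 and 2 one below 0 (median 0.11, and 0.03 without QQ replicate 1), and 0 passed edgeR. Such counts of signs are made after scaling between libraries, and for small differences the sign can differ from that of the mean RPKM.

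HAND1 did not share the low spread of HAND2. It stood at 89.4, 98.1 and 91.5 RPKM in WT and 97.3, 82.1 and 159 RPKM in QQ replicates 1 to 3. QQ replicate 3 was again far above the others. The log2 fold change of HAND1 was 0.18 ± 0.21 and turned to -0.13 without that library. TWIST1, a mesenchymal basic helix-loop-helix factor of the same family, stood at 101, 105 and 95.04 RPKM in WT and 92.3, 91.4 and 93.1 RPKM in QQ replicates 1 to 3. Its groups did not overlap, as for HAND2, and its log2 fold change was -0.21 ± 0.11. Its row, of 453 bp, is short. TWIST2 had a log2 fold change of -0.66 ± 0.40 on 7 to 20 reads per library. Of 5 tested HAND and TWIST family genes besides HAND2, 1 had a log2 fold change above 0 and 4 one below 0, with a median of -0.21 against 0.00 over all tested rows, and of -0.07 without QQ replicate 2 or -0.37 without QQ replicate 1. The 0 calls hold for each of them. TCF3, the E protein with which HAND factors pair, stood at 60.7 to 62.4 RPKM in WT and 68.5 to 70.3 RPKM in QQ embryos without overlap. After scaling between libraries its log2 fold change was 0.07 ± 0.10.

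Partners of GATA4 gave mixed values. ZFPM2, the cofactor that binds GATA4 in heart and gonad, stood at 8.12, 7.90 and 4.30 RPKM in WT and 8.39, 9.10 and 13.6 RPKM in QQ replicates 1 to 3. Its groups did not overlap, with WT replicate 3 lowest and QQ replicate 3 highest. Its log2 fold change was 0.52 ± 0.25, and 0.29 without QQ replicate 3. TBX20 stood at 36.8, 50.6 and 17.7 RPKM in WT and 55.2, 59.9 and 72.7 RPKM in QQ replicates 1 to 3, a log2 fold change of 0.75 ± 0.29 that was 0.44 without WT replicate 3. NKX2-5 stood at 11.6 to 15.9 RPKM in WT and 13.0 to 21.2 RPKM in QQ embryos, and its log2 fold change of 0.21 ± 0.20 was 0.07 without QQ replicate 3. MEF2C had a log2 fold change of 0.36 ± 0.25, and 0.13 without WT replicate 3. ISL1, a marker of the second heart field, had a log2 fold change of 0.14 ± 0.16, and TBX5 of 0.03 ± 0.14, which turned to -0.05 without WT replicate 1. SMARCD3, a chromatin remodelling subunit of heart precursors, went the other way at 18.0 to 21.8 RPKM in WT and 15.1 to 16.8 RPKM in QQ embryos (-0.40 ± 0.14).

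None of these genes passed edgeR (adjusted p of at least 0.233). Of 26 tested cardiac transcription factors other than GATA4 and HAND2, 21 had a log2 fold change above 0 and 5 one below 0, with a median of 0.16. Over all tested rows 49.7% had a log2 fold change above 0 and 50.3% one below 0. The median was 0.08 without QQ replicate 3, 0.11 without WT replicate 3 and 0.26 with library totals alone. Of 20 tested partners and regulators of both proteins, 14 had a log2 fold change above 0 and 6 one below 0, with a median of 0.08, and 0.18 with library totals alone. In that list NFATC4, a calcium-regulated factor that binds GATA4, had the smallest p (log2 fold change -0.43 ± 0.15), followed by the histone acetyltransferase EP300 (0.99 ± 0.36, on 49 to 256 reads in a row of 8364 bp).

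**Figure D3:**
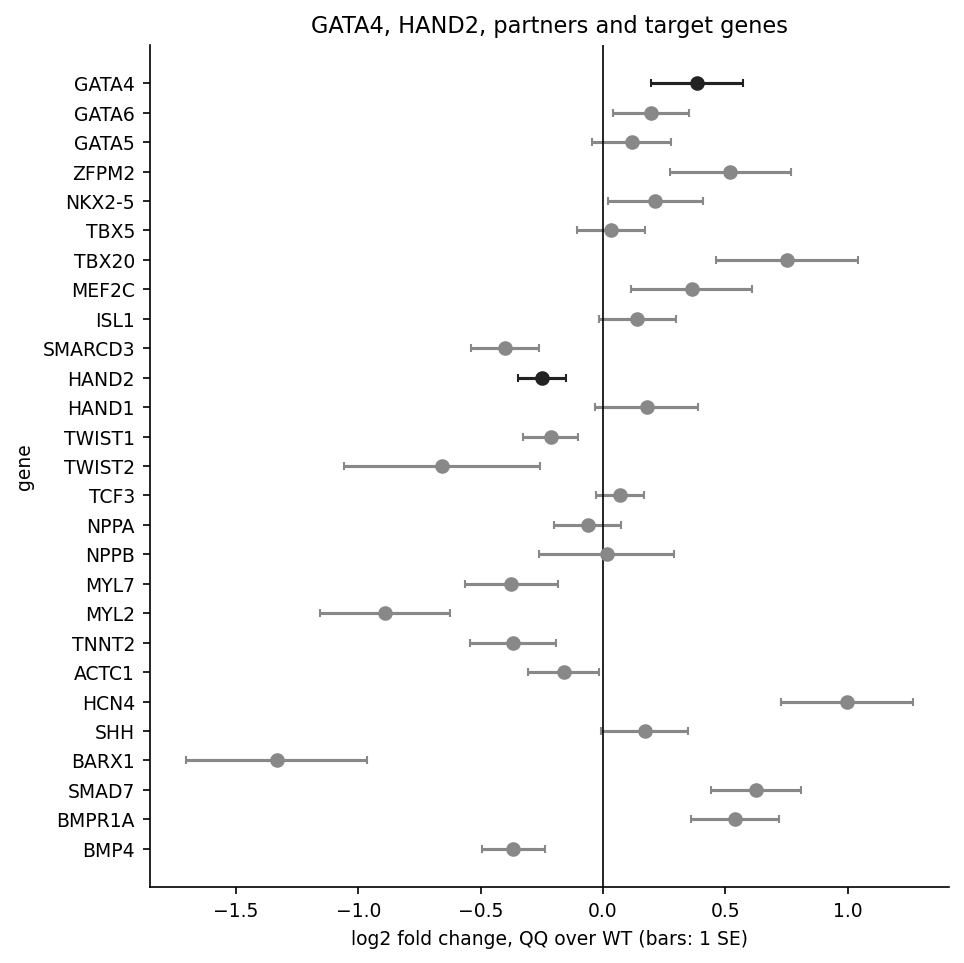
Log2 fold change of QQ over WT with 1 SE for GATA4 and HAND2 (black) and for partners, relatives and target genes (grey), from edgeR on 6 libraries. GATA4 lies at 0.38 and HAND2 at -0.25, within the range of the other genes, and no gene shown passed the adjusted threshold.

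Genes of heart muscle, many of them targets of GATA4, did not as a list follow GATA4 from library to library. The Pearson r of GATA4 with the median of this list was -0.85 over 6 libraries. With the median of the other cardiac transcription factors it was 0.96. Single heart muscle genes went both ways. Their r with GATA4 was 0.84 for HCN4 and 0.75 for TTN, but -0.88 for MYL7 and -0.84 for MYL2. NPPA, the atrial natriuretic peptide and a classic target of GATA4 and NKX2-5, stood at 54.1, 56.9 and 62.9 RPKM in WT and 55.6, 63.6 and 59.1 RPKM in QQ replicates 1 to 3. Its groups overlapped fully and its log2 fold change was -0.06 ± 0.14, which changed sign in 6 of 18 alternative settings. NPPB, the brain natriuretic peptide, had a log2 fold change of 0.02 ± 0.28 and also changed sign. MYL7, the atrial myosin light chain, stood at 300.02, 309 and 434 RPKM in WT and 317, 309.6 and 234 RPKM in QQ replicates 1 to 3. Here WT replicate 3 was highest and QQ replicate 3 lowest, the reverse of GATA4. MYL2, the ventricular light chain, stood at 11.8, 13.2 and 18.5 RPKM in WT and 10.4, 7.84 and 6.74 RPKM in QQ replicates 1 to 3, without overlap (log2 fold change -0.89 ± 0.26).

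The row given to cardiac troponin T (TNNT2) had a log2 fold change of -0.37 ± 0.18; its best protein match names ladinin-1, so its identity is uncertain. ACTC1, cardiac actin, had a log2 fold change of -0.16 ± 0.15, which turned to 0.09 under quantile normalization. The pacemaker channel HCN4 had the smallest p of the list (1.00 ± 0.27), with its lowest value, 2.03 RPKM, in WT replicate 3 and its highest, 8.63 RPKM, in QQ replicate 3. A TTN (titin) row had a log2 fold change of 1.76 ± 0.51, on 7 reads in WT replicate 3. MYH6 had 3 reads over all libraries and was not tested. Of 27 tested myocardial genes 9 had a log2 fold change above 0 and 18 one below 0, with a median of -0.16, which was -0.00 without WT replicate 3. WT replicate 3 was the highest library in 16 of them, against 25.3% of all tested rows. QQ replicate 3 was the lowest in 13, against 16.1% of all tested rows. The 9 above 0 had a median transcript length of 1686 bp and the 18 below 0 of 893.5 bp, and the part of length in these values was not tested. For the members, the 3234 tested rows of a length between 0.8 and 1.25 times that of GATA4 had a median log2 fold change of -0.05, and the 3145 such rows for HAND2 had one of -0.06.

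Endoderm, another home of GATA4, differed strongly between single embryos. Of 19 tested genes of this list, 17 had their highest value in QQ replicate 3, the library with the most GATA4. Of all tested rows, 24.2% had theirs there. The Pearson r of GATA4 with the median of the endoderm list was 0.59 over 6 libraries, and -0.30 without QQ replicate 3. The summed level of the 21 listed genes with a row was 790 to 1008 RPKM in WT embryos. It was 983, 782 and 1666 RPKM in QQ replicates 1 to 3. Of the 19 tested genes, 17 had a log2 fold change above 0 and 2 one below 0. The median was 0.20, and it turned to -0.05 without QQ replicate 3. AFP, the fetal serum protein of liver and yolk sac, stood at 46.3, 7.13 and 132 RPKM in WT and 55.0, 13.2 and 320 RPKM in QQ replicates 1 to 3. AFP had its second highest value in WT replicate 3, the library with the least GATA4. Of the 19 tested genes, 10 had their lowest value there, against 41.4% of all tested rows. APOB had 8, 6 and 4 reads in WT and 23, 15 and 285 reads in QQ replicates 1 to 3. FOXA2, a gut endoderm factor, had a log2 fold change of 0.03 ± 0.15 and SOX17 of -0.11 ± 0.21, and both changed sign in some settings. PROX1, of liver and lymphatic cells, had one of 0.88 ± 0.34.

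The liver and yolk sac list, which shares genes with the endoderm list, had 9 of 12 tested members with a log2 fold change above 0 and a summed level of 276 to 982 RPKM in WT and 208 to 1410 RPKM in QQ embryos. No marker with a row was at 0 reads over the 6 libraries. The median log2 fold change of this list was 0.07, and it ran from -0.79 without QQ replicate 3 to 0.70 without WT replicate 3. The Pearson r of GATA4 with the median of this list was 0.14 over 6 libraries, and -0.97 without QQ replicate 3. The smallest p values of the list were those of APOB and of TDH (-0.27 ± 0.14). The part of endoderm content in the GATA4 values was not tested. In the urogenital list 3 of 8 tested genes had a log2 fold change above 0 and 5 one below 0. The median was -0.05, and it turned to 0.04 with library totals alone and to 0.05 without QQ replicate 3. The smallest p values were those of SIX4 (0.83 ± 0.36, 0.45 without WT replicate 3) and OSR1 (-0.40 ± 0.19).

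**Figure D4:**
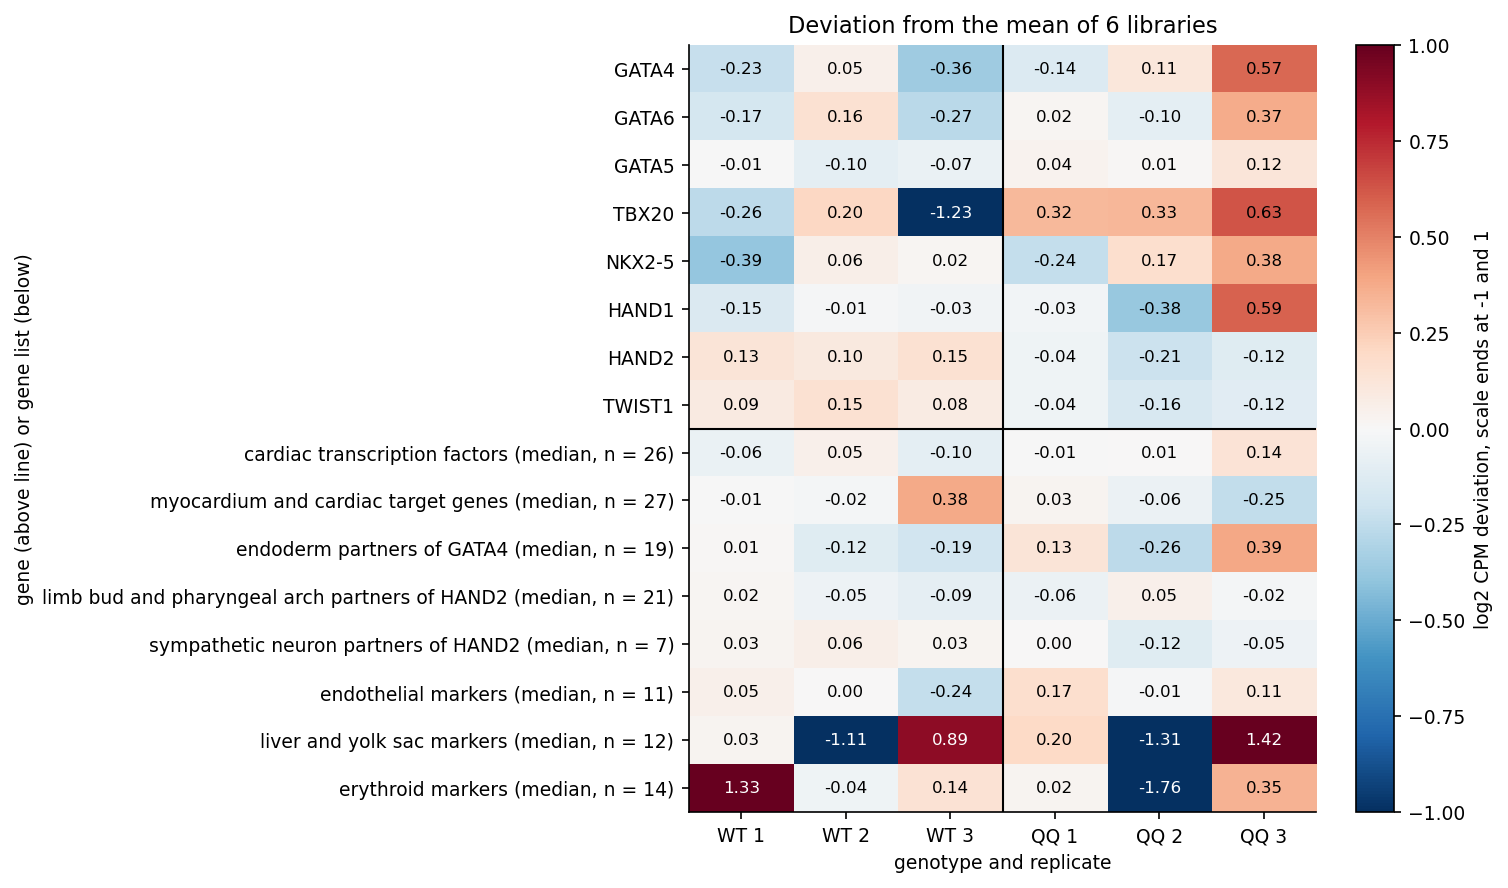
Log2 CPM (counts scaled to library size) of single genes, and list medians, as deviation from the mean of the 6 libraries; colours end at -1 and 1. GATA4, GATA6, TBX20, NKX2-5 and HAND1 are highest in QQ replicate 3, HAND2 and TWIST1 separate the genotypes by small amounts, and the liver and yolk sac median runs from -1.31 to 1.42.

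Genes of the other tissues of HAND2 showed no common direction. SHH, the limb and floor plate signal whose limb expression HAND2 promotes, stood at 9.91, 9.57 and 7.79 RPKM in WT and 8.99, 12.7 and 11.1 RPKM in QQ replicates 1 to 3 (log2 fold change 0.17 ± 0.18). PTCH1, receptor and target of hedgehog signals, had a log2 fold change of 0.41 ± 0.14. BARX1, a homeobox gene of pharyngeal arches and stomach, had 16, 18 and 24 reads in WT and 11, 5 and 8 reads in QQ replicates 1 to 3 (-1.33 ± 0.37). The groups of BARX1 did not overlap, but its reads were few. Of 21 tested limb and arch genes 13 had a log2 fold change above 0 and 8 one below 0 (median 0.08, and 0.18 with library totals alone).

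In the sympathetic list 3 of 7 tested genes had a log2 fold change above 0 and 4 one below 0. The median was -0.12, and it was -0.01 without WT replicate 3, -0.05 without QQ replicate 3 and -0.02 with library totals alone. CHGA, chromogranin A of neuroendocrine cells, stood at 39.1, 38.9 and 45.7 RPKM in WT and 37.2, 34.03 and 33.2 RPKM in QQ replicates 1 to 3, without overlap (-0.34 ± 0.13). SOX11, a neuronal factor, had a log2 fold change of 0.35 ± 0.14, and 0.20 without WT replicate 3. PHOX2A had too few reads to be tested.

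Among 19 tested BMP and FGF signalling genes, 14 log2 fold changes were above 0 and 5 below 0. Their median was 0.09, and 0.19 with library totals alone. This list mixes ligands, receptors and inhibitors, so the counts give no direction for the signal itself. BMP4, a ligand that promotes GATA4 and HAND2 expression, stood at 88.6, 67.0 and 85.7 RPKM in WT and 61.4, 69.0 and 70.2 RPKM in QQ replicates 1 to 3, with overlap at WT replicate 2 (-0.37 ± 0.13). The BMP receptor BMPR1A had a log2 fold change of 0.54 ± 0.18, with its lowest value, 15.3 RPKM, in WT replicate 3. SMAD7, a feedback inhibitor of BMP and TGF beta signals, stood at 12.6, 16.8 and 12.5 RPKM in WT and 23.1, 18.0 and 27.9 RPKM in QQ replicates 1 to 3 (0.63 ± 0.18). The groups of SMAD7 and BMPR1A did not overlap, and neither gene passed edgeR (adjusted p = 0.233 each). Of the 19 genes, 7 stood apart with higher values in QQ, SMAD7 and BMPR1A included, and 1 with lower values. The shares over all tested rows were 18.8% and 9.07%.

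In the endocardium, valve and epicardium list 8 of 13 tested genes had a log2 fold change above 0 and 5 one below 0 (median 0.05, from -0.01 without WT replicate 3 to 0.25 without QQ replicate 2). ERBB4, the neuregulin receptor of heart muscle, had 11, 11 and 10 reads in WT and 31, 48 and 32 reads in QQ replicates 1 to 3 (1.71 ± 0.30, edgeR adjusted p = 0.233). ALDH1A2, which makes retinoic acid in epicardium and trunk mesoderm, averaged 43.3 ± 2.70 RPKM over the WT libraries, against 36.8 ± 2.36 RPKM over the QQ libraries (SD, n = 3 per genotype), with a log2 fold change of -0.33 ± 0.11.

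Markers of further tissues are given for each library's makeup. All 14 tested erythroid genes had a log2 fold change below 0, with a median of -0.74 that was -0.19 without WT replicate 1 and -0.27 without QQ replicate 2. The summed level of the 17 listed genes with a row ran from 2185 to 7746 RPKM in WT and from 303 to 3247 RPKM in QQ embryos. NFE2 (-1.15 ± 0.32) and GYPC (-0.78 ± 0.32) had the smallest p. The median was 0.22 over 11 endothelial genes, 0.02 without WT replicate 3 and 0.08 without QQ replicate 3, led by KDR (0.74 ± 0.33) and TEK (0.78 ± 0.45), both on few reads. It was -0.04 over 7 genes of skeletal muscle, led by DES (-0.44 ± 0.15) and MYOG (-0.75 ± 0.50), and it ran from -0.16 without QQ replicate 2 to 0.06 with library totals alone. It was 0.03 over 8 neural genes, from -0.02 without QQ replicate 1 to 0.14 without QQ replicate 3, led by EGR2 (0.59 ± 0.39) and FABP7 (-0.21 ± 0.20). Over 5 trophoblast genes it was 0.17, and it turned to -0.53 without QQ replicate 1, led by HSD17B1 (-0.51 ± 0.35) and IFNG (1.66 ± 1.29), which had 1165 reads in QQ replicate 1 and 1 to 168 in the others (-2.49 without QQ replicate 1). None of these genes passed edgeR. The part of such tissues in the values of GATA4 and HAND2 was not tested.

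The genes whose log2 CPM ran most like each member were taken from 6332 tested rows with a symbol and a mean of at least 1 RPKM. For GATA4 they were PSMD1, a proteasome subunit (Pearson r = 0.98 over 6 libraries), HSP90B1, a chaperone of the endoplasmic reticulum (0.97), EEF2K (0.97), GALNT3 (0.97) and HHEX, a homeobox factor of endoderm and endothelium (0.96). PSMD1 ran from 45.1 RPKM in WT replicate 3 to 63.2 RPKM in QQ replicate 3, and HHEX from 7.34 to 11.8 RPKM between the same libraries. The least alike was AZIN2 (r = -0.996). For HAND2 they included BARX1 (r = 0.98), LOC100513542, matched to protein phosphatase 5 (0.98), ABCD3 (0.98) and APH1A, a gamma-secretase subunit (0.98). APH1A stood at 99.7, 96.9 and 102 RPKM in WT and 90.6, 82.2 and 86.0 RPKM in QQ replicates 1 to 3, so its groups did not overlap, as for HAND2. The least alike was TRUB1 (r = -0.99). These are the extremes of many rows over 6 points that share 1 experiment, so high values occur for many genes.

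**Figure D5:**
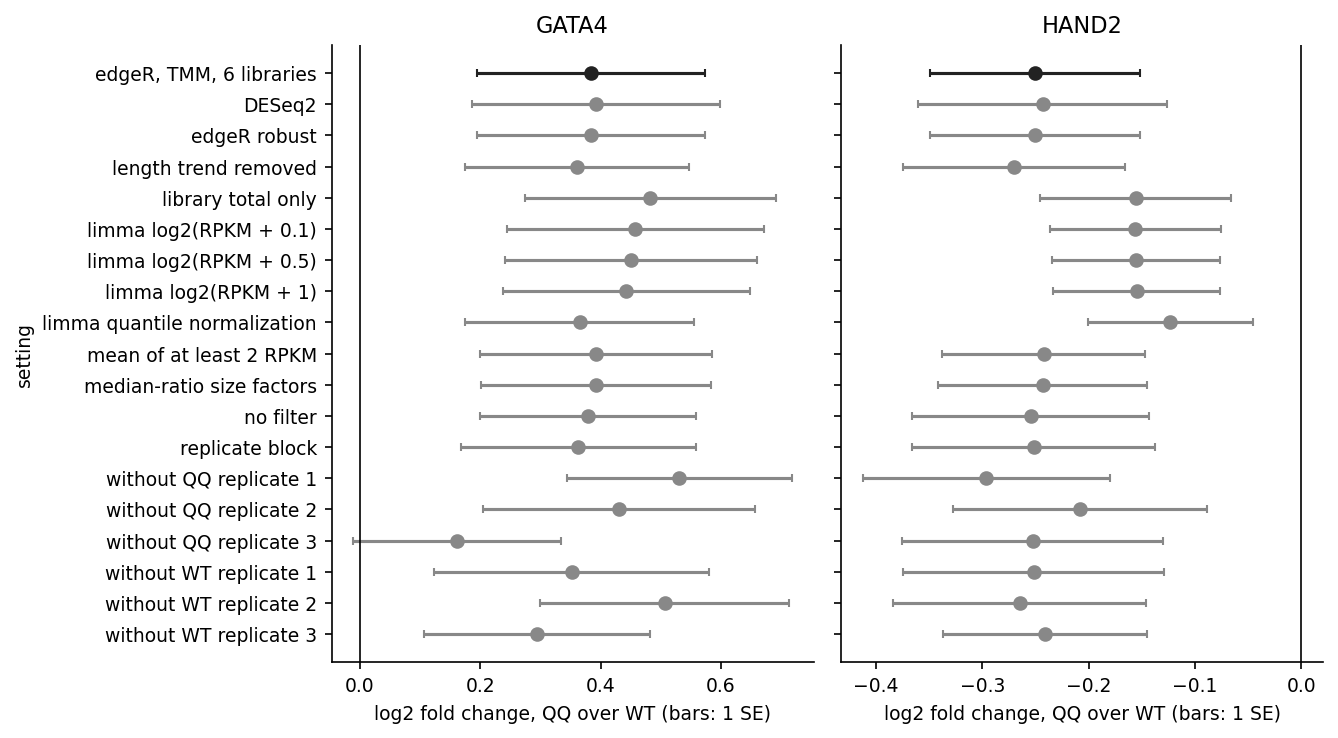
Log2 fold change of QQ over WT with 1 SE for GATA4 and HAND2 under each tool, scaling, filter and left-out library. GATA4 stays above 0, with its lowest value of 0.16 without QQ replicate 3, and HAND2 stays below 0, with its value nearest to 0, -0.12, under quantile normalization.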

How the data were processed

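RNA of 3 WT and 3 QQ embryos was made into TruSeq libraries, per the labels' protocols, and the submitters' processing notes name the build Sscrofa10.2. Which aligner, counting program and strand setting were used is not given in the sources used here. The authors deposited, per the file headers, uniquely mapped read counts, the percent of each transcript covered, RPKM and transcript length. Dashes were read as 0. Deposited RPKM matched counts, length and library total within a relative gap of 1.29e-07.

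Counts were tested with edgeR 4.0.16 (R 4.3.3): TMM factors, default filter (minimum count 10, total 15), quasi-likelihood fit without covariates, Benjamini-Hochberg adjustment over 13957 rows, threshold 0.05. The standard error is the log2 fold change divided by the square root of F. Permutation tests used scipy 1.17.1, and DESeq2 1.42.0 and limma 3.58.1 served as alternatives. The test was checked on simulated counts, with the same spread for all genes and changes larger than those of GATA4 and HAND2. That check does not cover differences of their size.

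Symbols came from the pig protein accession of the best match (7185 rows), the KEGG pig gene (2277 rows) or the protein description (105 rows). Of 268 genes in 17 lists, 225 had a row and 193 were tested; the row with the most reads stood for a gene. The members, lists and tests were chosen with earlier results of these data known, so no list is independent evidence. Named were both members, the 5 rows most like and the 1 least like each by Pearson r, the 2 genes of each list with the smallest p, and a fixed set of partners and targets. ZFPM1, TCF12 and MYH7 of that set were not analysed here, and some genes that these rules name are not reported here. VRTN and the genes next to GATA4 in the order of levels were added for context, and GATA2, GATA3, MYL2, AFP, BMP4 and PHOX2A after their values were seen. Alternatives were other scalings, filters, tools, pseudocounts, a replicate block and each library left out.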

Additional observations from a re-analysis of the deposited data

How the results depend on the processing

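Neither GATA4 nor HAND2 changed direction or passed an adjusted p of 0.05 in any of 19 alternatives. GATA4 ran from 0.16 to 0.53 in log2, both ends from leaving out 1 library, with adjusted p from 0.174 to 0.674. HAND2 ran from -0.30 to -0.12, and from -0.30 to -0.21 when 1 library was left out, with adjusted p from 0.199 to 0.526. A threshold of 0.1 added no call for either gene. Whether equal replicate numbers pair the samples could not be settled with 3 libraries a group. Deviations from group means correlated at -0.19, 0.21 and -0.06 for numbers 1 to 3, and at -0.17 to 0.22 for unlike numbers. With the replicate number as a block, the log2 fold change was 0.36 for GATA4 and -0.25 for HAND2, and 0 rows were called. GATA4 minus HAND2 ran from 0.42 to 0.81 without 1 library. Rows called were 103 higher and 8 lower with DESeq2; leaving out 1 library gave 0 to 2 higher and 0 to 1 lower, the calls coming without QQ replicate 1 (2 higher, 1 lower) or WT replicate 3 (1 higher). Removal of the trend over transcript length and quantile normalization were chosen after seeing the data; the removal gave 0.36 for GATA4 and -0.27 for HAND2. Summing rows of a gene was not run, since each gene has 1 row. Of 193 other tested list genes, 79 changed sign in some setting. With 3 libraries a group, an exact permutation cannot go below p = 0.1.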

Other observations

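The genes next to GATA4 and HAND2 in the Sscrofa11.1 annotation, looked up after the members' values were seen, are given with their values. CTSB and FDFT1 lie between the 2 genes. The 3 nearest tested genes on each side of GATA4 were TDH, SOX7 and MSRA on one side and NEIL2, FDFT1 and CTSB on the other, with log2 fold changes of -0.27 ± 0.14, -0.24 ± 0.14, -0.04 ± 0.21, -0.25 ± 0.22, -0.01 ± 0.11 and -0.23 ± 0.14. The values of FDFT1 and MSRA were near 0, and their mean RPKM was higher in QQ (190.1 against 179 for FDFT1, 4.46 against 4.27 for MSRA). Nearest to HAND2 were HPGD (0.16 ± 0.22), HMGB2 (-0.17 ± 0.14), GALNT7 (0.22 ± 0.13) and CBR4 (-0.02 ± 0.14). None passed edgeR (adjusted p of at least 0.276).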
